A study of Mus musculus with 24 samples.

Results

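Between postnatal day (P) 7 and P21, upper-layer neurons of the mouse cortex pass from a state of growing axons and forming synapses to one of refined, active circuits. The open chromatin of Cux2-lineage callosal projection neurons (Cux2 CPNs) at these 2 ages was compared here as 2 lists of ATAC-seq peaks, regions where a transposase inserted into accessible DNA more often than in the surroundings. All peaks on chromosomes 1 to 19 and X were taken, 29590 of the 29601 listed at P7 and 37426 of the 37432 listed at P21, which together are 67016 of the 292908 such peaks in the 12 lists of the series. A P7 peak was called lost when no P21 peak shared 1 bp with it and kept otherwise, and a P21 peak was called gained when no P7 peak shared 1 bp with it. Lost and gained therefore mean absent from the other list, not closed or newly opened in every cell.

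The series holds ATAC-seq of Cux2 CPNs and of Tle4-lineage corticothalamic neurons (Tle4 CThPNs) of the deepest layer at 6 ages between E18.5 and P48, in 24 libraries. The 4 libraries behind the P7 and P21 Cux2 lists came from C57BL/6 mice of genotype Cux2-CreERT2:Ai14, in which a 4-HydroxyTamoxifen injection of the pregnant dam switched on a red reporter in cells with an active Cux2 gene, and red cells were sorted from somatosensory and motor cortex. Both ages share this genotype, injection and sort, and they differ in age (P7 or P21) and in the papain concentration, which was raised for P21 and P48 animals, so age and digestion cannot be told apart. Each library pooled animals of both sexes, the Cre line is known to mark some interneurons too, and each list merged 2 libraries, which leaves the values of a list without a spread between replicates. Read depth is unknown from the lists. They covered 19.2 Mb at P7 and 21.04 Mb at P21, and their weakest peaks had a −log10 p of 12.3 and 13.7. Intervals are 95% Wilson intervals and cover counting error only.

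An ATAC-seq peak at a transcription start site (TSS) marks a promoter, the place where transcription begins, and many promoters, above all those rich in CpG dinucleotides, are accessible in most cell types. Peaks away from TSSs, called distal here, include enhancers, which are bound by transcription factors and vary far more between cell types and ages, and sites of CTCF, a factor that anchors chromatin loops. In neurons, AP-1 (dimers of FOS and JUN proteins), MEF2 and EGR factors bind enhancers that respond to synaptic activity. SOX, POU, MEIS and homeobox factors act in fate specification and early differentiation.

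A promoter peak was defined as one within 1 kb of any annotated TSS, and examples of the sequence at the summit are given for lost and gained promoters. The 200 bp windows below are from the plus strand of NCBIM37 (mm9). Capitals mark matches to any of 19 searched motifs, on either strand. Wbscr27 and Cngb3 had the highest fold enrichment (the peak caller's ratio over local background) of all lost and all gained promoter peaks, Syp encodes the synaptic vesicle protein synaptophysin, and Cux2 is the gene that defines the lineage.
Wbscr27, lost promoter (chr5:135408130-135408329): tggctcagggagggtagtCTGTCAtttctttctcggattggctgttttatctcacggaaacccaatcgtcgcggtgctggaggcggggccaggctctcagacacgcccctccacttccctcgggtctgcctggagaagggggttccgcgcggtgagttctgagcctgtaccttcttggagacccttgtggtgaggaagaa
Syp, lost promoter (chrX:7217172-7217371): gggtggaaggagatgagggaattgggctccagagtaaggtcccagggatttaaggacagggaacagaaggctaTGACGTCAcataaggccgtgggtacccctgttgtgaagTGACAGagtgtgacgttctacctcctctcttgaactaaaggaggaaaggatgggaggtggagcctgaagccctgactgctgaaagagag
Cngb3, gained promoter (chr4:19208593-19208792): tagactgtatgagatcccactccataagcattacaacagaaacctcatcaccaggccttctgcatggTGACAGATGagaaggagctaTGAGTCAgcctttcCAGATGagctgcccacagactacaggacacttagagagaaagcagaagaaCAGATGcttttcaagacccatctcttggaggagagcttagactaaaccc
Cux2, gained promoter (chr5:122366918-122367117): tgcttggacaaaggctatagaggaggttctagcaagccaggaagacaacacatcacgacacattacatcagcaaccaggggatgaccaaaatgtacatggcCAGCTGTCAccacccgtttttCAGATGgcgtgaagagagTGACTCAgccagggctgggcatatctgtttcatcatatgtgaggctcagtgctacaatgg
The Wbscr27 window lies 8 bp from the TSS, holds 11 CpGs at 59% GC and has a single match, to MEIS (TGACAG). The Syp window holds 3 CpGs at 53% GC and has a CRE match (TGACGTCA), the site of CREB, and a MEIS match. The gained Cngb3 window, 696 bp downstream of a TSS, holds no CpG and has an AP-1 match (TGANTCA), 1 MEIS match and 3 matches to the proneural E-box (CAGATG), 1 of which overlaps the MEIS match. The gained Cux2 window, 275 bp upstream of a TSS inside the gene, holds 3 CpGs at 49.5% GC, close to the lost Syp window. This Cux2 window has 1 AP-1 match, 1 proneural E-box and a palindromic E-box (CAGCTG) that overlaps a MEIS match.

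Among distal peaks, the windows chosen are the strongest lost (Calcr, the calcitonin receptor gene) and gained (Scel) peaks of the lists, the strongest lost peak next to Cacna1a, the strongest gained peaks next to Pde4d and Nefm, and a lost peak in an intron of Cux2. The last was chosen after its sequence was seen, as the strongest lost peak next to the named genes with a CTCF match.
Cux2, lost distal (chr5:122322285-122322484): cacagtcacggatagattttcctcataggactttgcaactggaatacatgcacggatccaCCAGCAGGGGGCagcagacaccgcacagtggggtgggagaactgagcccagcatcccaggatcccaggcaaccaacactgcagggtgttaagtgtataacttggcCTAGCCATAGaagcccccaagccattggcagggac
Calcr, lost distal (chr6:3650012-3650211): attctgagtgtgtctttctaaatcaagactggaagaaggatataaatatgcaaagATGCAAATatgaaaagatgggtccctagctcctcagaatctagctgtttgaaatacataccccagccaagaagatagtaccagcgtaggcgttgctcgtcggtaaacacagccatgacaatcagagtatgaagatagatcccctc
Cacna1a, lost distal (chr8:87018629-87018828): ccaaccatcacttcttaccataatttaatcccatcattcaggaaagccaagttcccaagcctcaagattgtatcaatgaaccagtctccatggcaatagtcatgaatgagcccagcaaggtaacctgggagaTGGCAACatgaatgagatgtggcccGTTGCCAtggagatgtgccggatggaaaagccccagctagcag
Scel, gained distal (chr14:103839585-103839784): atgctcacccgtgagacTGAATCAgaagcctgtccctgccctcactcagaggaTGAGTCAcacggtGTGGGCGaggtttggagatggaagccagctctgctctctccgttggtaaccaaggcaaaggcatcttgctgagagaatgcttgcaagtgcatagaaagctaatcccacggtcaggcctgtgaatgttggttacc
Pde4d, gained distal (chr13:109981496-109981695): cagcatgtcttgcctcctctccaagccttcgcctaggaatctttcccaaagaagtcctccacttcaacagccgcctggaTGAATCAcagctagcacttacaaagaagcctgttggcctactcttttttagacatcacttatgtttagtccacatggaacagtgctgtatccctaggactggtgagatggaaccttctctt
Nefm, gained distal (chr14:68842203-68842402): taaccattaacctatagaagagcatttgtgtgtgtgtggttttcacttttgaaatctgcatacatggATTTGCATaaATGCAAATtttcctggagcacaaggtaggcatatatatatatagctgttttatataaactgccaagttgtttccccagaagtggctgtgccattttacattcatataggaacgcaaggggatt
The lost Cux2 window has a CTCF and a MEF2 (CTANNNNTAG) match, the lost Calcr window a POU match (ATGCAAAT) and the lost Cacna1a window 2 matches to RFX (GTTGCCA). The gained Scel window has 2 AP-1 matches and an EGR match (GTGGGCG), and the gained Pde4d window 1 AP-1 match. The gained Nefm window, 99400 bp upstream of this neurofilament gene, has 2 POU matches and none to AP-1, and it was also listed at E18.5 and in the 4 early Tle4 lists.

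In total 14602 of 29590 P7 peaks, 49.3% (48.8 to 49.9), were lost, and 22386 of 37426 P21 peaks, 59.8% (59.3 to 60.3), were gained. The remaining 14988 P7 peaks overlapped 15040 P21 peaks. Promoters and distal peaks differed in both shares over the whole lists. Of 9111 promoter peaks at P7, 3538 were lost, 38.8% (37.8 to 39.8), and of 6936 promoter peaks at P21, 1341 were gained, 19.3% (18.4 to 20.3). Of 20479 distal peaks at P7, 11064 were lost, 54.0% (53.3 to 54.7), and of 30490 at P21, 21045 were gained, 69.0% (68.5 to 69.5). The list thus had fewer promoter peaks and more distal peaks at P21 than at P7. With both lists cut to their strongest 29590 peaks, 57.2% of P7 peaks were lost and 57.1% of P21 peaks gained, 2 counts that lists of equal length force to be close, and 48.2% of promoter peaks were lost and 16.1% gained.

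The sets had different genomic contexts. Promoters were 24.2% (23.5 to 24.9) of lost peaks, 37.2% (36.4 to 38.0) of kept P7 peaks and 5.99% (5.69 to 6.31) of gained peaks. Introns held 42.9% (42.2 to 43.5) of gained and 29.3% (28.6 to 30.1) of lost peaks. Intergenic sequence held 46.0% of gained and 41.8% of lost peaks, whereas exons outside promoters and untranslated regions held 3.20% and 2.71%. Of the gained promoter peaks 80.7% (78.5 to 82.7) lay at the TSS of a protein-coding gene, against 93.6% (92.8 to 94.4) of the lost ones. Their summits were also further from the nearest protein-coding TSS, with medians of 581 bp and 90 bp. Gains were spread over the genome, from 54.8% of P21 peaks on chromosome 7 to 65.7% on chromosome 16, and losses ran from 45.7% of P7 peaks on chromosome 3 to 54.3% on chromosome 7.

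**Figure D1:**
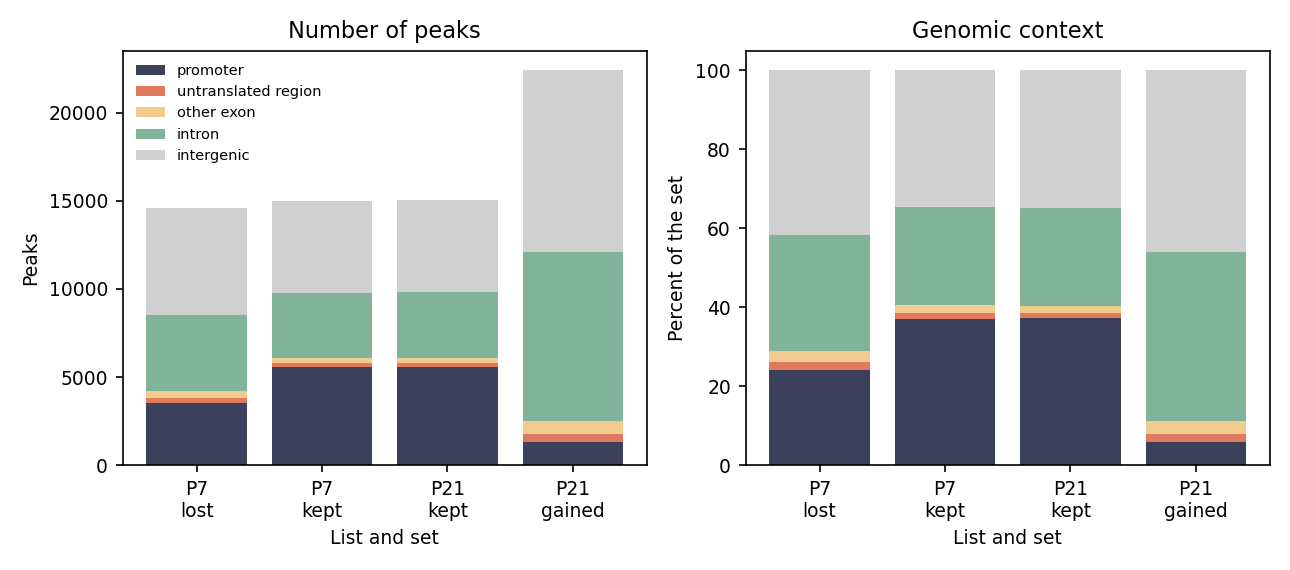
Number of peaks (left) and percent of the set (right) by genomic context for lost and kept peaks of the P7 list and kept and gained peaks of the P21 list. Each bar is 1 set of 1 list, with no replicate error, and promoters are 24.2% of lost but 5.99% of gained peaks.

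Weak peaks changed more often than strong ones, but gain of distal sites reached into the strongest peaks. With the P7 list split into 10 groups of equal size by −log10 p, 80.3% (76.7 to 83.5) of promoter peaks and 70.9% (69.1 to 72.7) of distal peaks in the weakest group were lost, against 3.95% of promoter and 13.8% of distal peaks in the strongest. At matched strength promoters were thus not lost less often throughout: their share was above that of distal peaks in the 7 weaker groups and below it in the 3 strongest, and the intervals overlapped in the third and the fifth to the eighth group, counted from the weakest. In the P21 list, 34.5% of promoter and 78.6% of distal peaks in the weakest group were gained, against 4.16% (3.15 to 5.47) and 52.5% (50.6 to 54.4) in the strongest. More of the strongest distal peaks at P21 were thus absent from the P7 list than present in it, which was not so for promoters. Gained distal peaks had a median fold enrichment of 9.55, near the 9.99 of kept distal peaks in the same list, and a median width of 498 bp, against 572 bp for the kept ones.

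**Figure D2:**
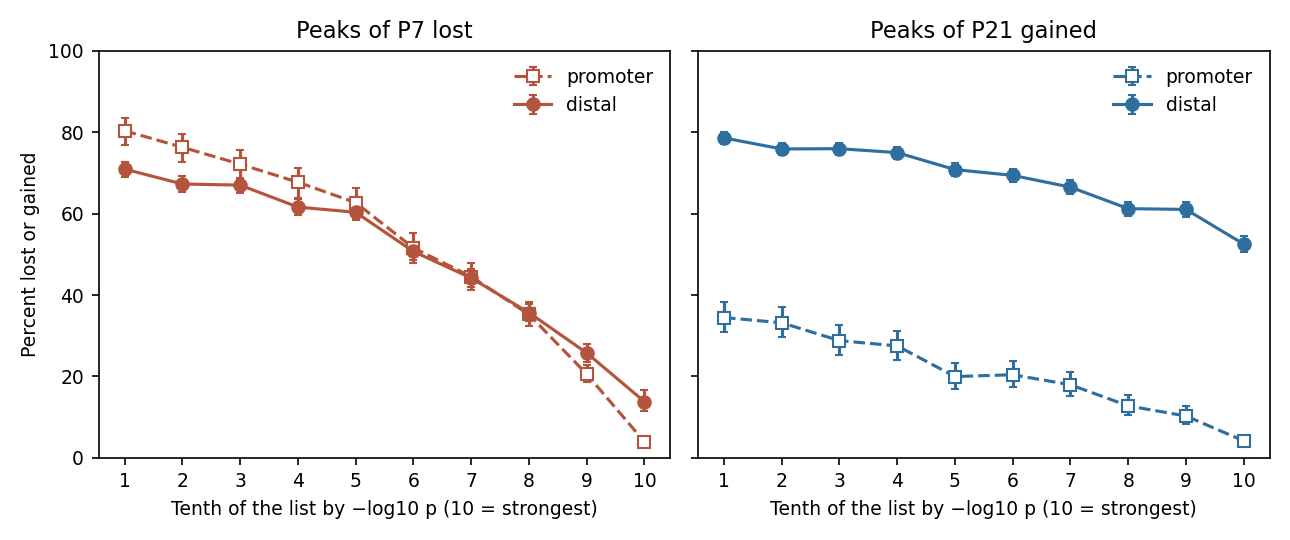
Percent of P7 peaks lost (left) and of P21 peaks gained (right) in each of 10 groups of equal size of its list by −log10 p, for promoter (open squares, dashed) and distal (filled circles) peaks, with 95% Wilson intervals. In the strongest group 4.16% of promoter and 52.5% of distal peaks were gained.

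The place of the kept peaks within each list is given as a percentile rank by −log10 p, 100 being the strongest. A rank depends on which other peaks are listed, and the P21 list held 22386 peaks without a P7 counterpart, so the ranks describe each list and measure no change of a site. The 5573 kept promoter peaks had a median rank of 85.3 among P7 peaks and 62.6 among P21 peaks, and the 9415 kept distal peaks had median ranks of 55.4 and 59.1. The kept promoters of Pde4d (98.4 and 99.1), Dlg2 (93.4 and 93.7) and Tle4 (98.7 and 99.5) stood near the top of both lists.

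The sequence around the summits separated the gained promoters from the other promoters. The median GC content of 200 bp windows was 62.5% in lost, 61.0% in kept and 50.5% in gained promoter peaks. The median CpG ratio (observed CpGs over those expected from the C and G content) was 0.772, 0.781 and 0.306. With a GC content above 50% and a CpG ratio above 0.6 as limits, 66.3% (64.8 to 67.9) of lost, 70.7% (69.5 to 71.9) of kept and 17.0% (15.1 to 19.1) of gained promoter windows were CpG-rich. Lost promoters thus resembled kept ones in these measures, and the Wbscr27 and Cngb3 windows above are an example of each kind. Distal windows differed little in GC content (medians of 44.0% in lost and 45.5% in gained), but their CpG ratio was 0.260 in lost and 0.179 in gained peaks, and 4.05% and 0.684% were CpG-rich.

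The other 10 lists, which had no part in choosing the peaks, showed at which other ages the lost and gained sites were listed. Absence from a list does not show that a site was closed. Of lost distal peaks 47.1%, 37.9% and 56.0% were listed in Cux2 CPNs at E18.5, P1 and P3, and 17.6% (16.9 to 18.4) at P48. Gained distal peaks were listed in 6.39%, 2.49% and 4.42% of cases at those earlier ages and in 77.1% (76.6 to 77.7) at P48. For kept distal peaks the shares were 52.1%, 46.6% and 64.8%, not far above the lost ones, and 85.3% at P48. Gained distal sites were thus rarely listed before P7, since 91.5% (91.1 to 91.9) of them were in none of the 3 earlier Cux2 lists.

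Promoters behaved less uniformly after P21. Of the lost promoter peaks 81.5%, 70.6% and 80.5% were listed at E18.5, P1 and P3, and 55.0% (53.4 to 56.6) were listed again at P48. Only 36.5% were in at least 1 earlier list and absent at P48, against 52.3% of the lost distal peaks. Gained promoter peaks were listed at P48 in 84.6% (82.5 to 86.4) of cases and in at least 1 of the 3 earlier Cux2 lists in 25.4%. The P48 list was the longest, with 45642 peaks, and the part of its length in these shares was not tested.

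In Tle4 CThPNs the gained share of the same sites split by age in the same direction. For each list the gained share is the number of gained peaks present in it, as a percentage of all lost and gained peaks present. For distal sites it was 20.5%, 11.1% and 13.1% in the Cux2 lists of E18.5, P1 and P3, and 34.6%, 38.7%, 38.2% and 39.6% in the Tle4 lists of E18.5, P1, P3 and P7. It was 89.3% in the Cux2 list of P48 and 88.9% and 86.3% in the Tle4 lists of P21 and P48. The late and early lists did not overlap, and the means were 88.2% ± 1.61 (SD, n = 3 lists) and 28.0% ± 12.6 (SD, n = 7 lists), a difference of 60.2 percentage points. For promoter sites the shares were 37.2% ± 0.523 and 7.40% ± 1.20, a difference of 29.8 points (19.2 at equal list length), and for all sites the difference was 59.5 points. Each of the 3 differences was the largest of the 60 arrangements of stage labels within classes, and the two-sided exact permutation test gave p = 0.0167, which no arrangement can go below (0.0167 after Benjamini-Hochberg adjustment over the 3 tests). The lists of 1 class at different ages are the units here, not replicates. In the Tle4 lists of P7, P21 and P48, gained distal sites were listed in 5.19%, 5.29% and 12.5% of cases. Lost distal sites were listed there in 15.1%, 1.26% and 3.77%. The higher gained share of the Tle4 P21 list thus came with fewer lost sites, in a list of 6538 peaks against 15182 at P7. With the Tle4 lists alone, where 15 arrangements give no p below 0.0667, the distal difference was 49.9 points. Without the Cux2 list of P48 the distal difference was 59.6 points (exact permutation p = 0.0667). It was 59.8 points when the P21 list of Tle4 CThPNs was left out and 61.1 points when their P48 list was (exact permutation p = 0.05 each), again the smallest p these designs allow.

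**Figure D3:**
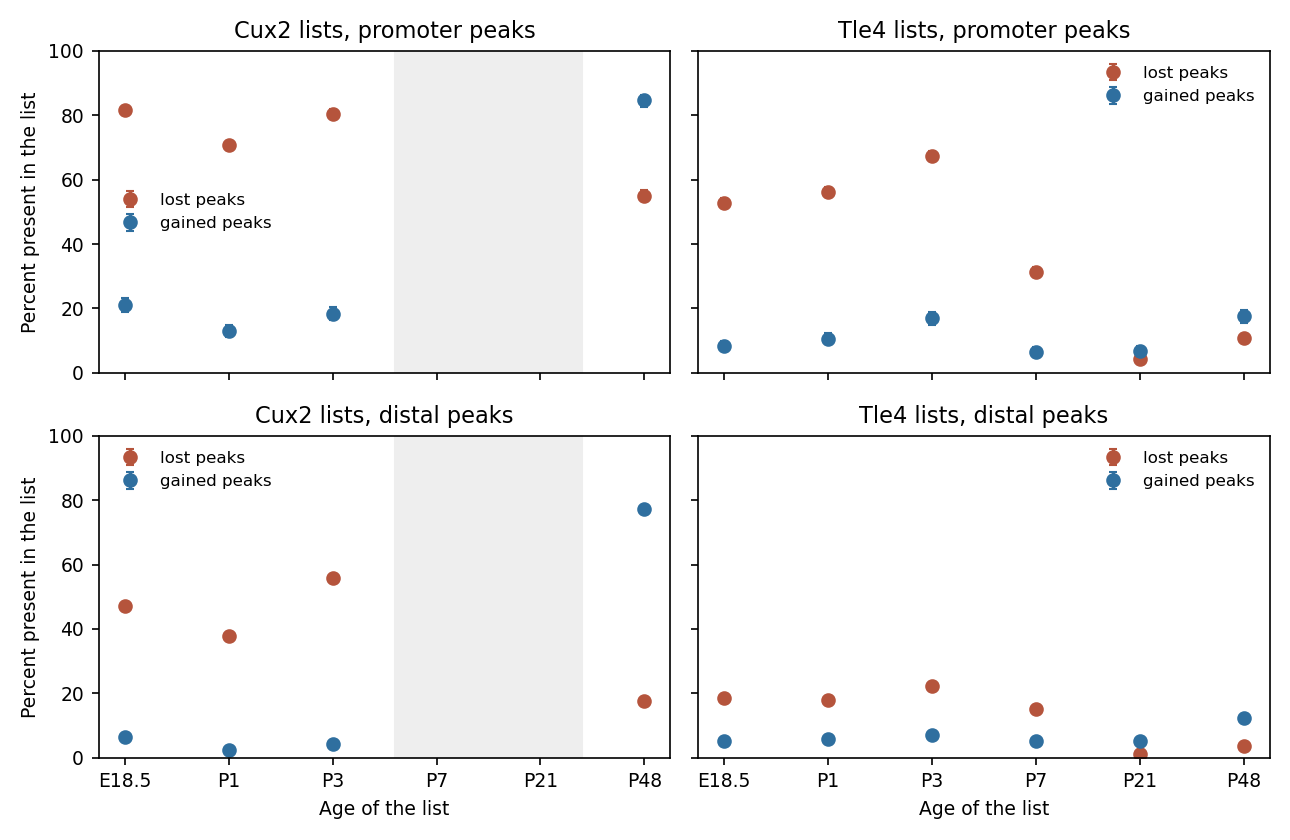
Percent of lost and of gained peaks present in each of the 10 lists not used to choose them, by age, for promoter (top) and distal (bottom) peaks and for Cux2 (left) and Tle4 (right) lists. Bars are 95% Wilson intervals, and the gray band covers P7 and P21, which defined the sets. Gained distal peaks reach 77.1% in the Cux2 list of P48.

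In Tle4 CThPNs 1863 peaks were gained and 10511 lost between the same ages, from lists of 15182 and 6538 peaks. Of the Cux2 gained peaks 4.16% overlapped a Tle4 gained peak, and of the Tle4 gained peaks 49.97% overlapped a Cux2 gained one. Of the Cux2 lost peaks 17.4% overlapped a Tle4 lost peak, and of the Tle4 lost peaks 24.1% overlapped a Cux2 lost one. Of the gained peaks 90.6% were in neither of these Tle4 lists, against 71.5% of all Cux2 P21 peaks, and of the lost peaks 80.5% were in neither, against 61.5% of all Cux2 P7 peaks. Among consecutive ages of Cux2 CPNs, compared at equal list length and so with shared lists between steps, the percentage of peaks lost was 26.8 from E18.5 to P1, 22.6 from P1 to P3, 30.5 from P3 to P7, 57.2 from P7 to P21 and 24.7 from P21 to P48.

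In percentage points, the AP-1 motif was the one that most separated distal sites gained at P21 from lost ones. TGANTCA occurred in 29.2% (28.6 to 29.8) of gained distal windows, in 9.07% (8.51 to 9.67) of kept and in 4.99% (4.60 to 5.41) of lost ones. In all 71586 distal regions of the 12 lists it occurred in 15.3%. CTCF showed the opposite order, at 0.708% (0.603 to 0.831) of gained, 5.29% of kept and 5.99% (5.57 to 6.45) of lost windows, and 2.97% of all distal regions. No other motif differed as much between gained and lost windows in percentage points as AP-1. As a ratio of gained to lost shares, AP-1 stood at 5.84 and CTCF at 0.118, so CTCF was further apart on that scale. Windows of gained promoters held AP-1 in 21.3% of cases, against 2.49% of lost promoters, 3.27% of kept promoters and 5.73% of all promoter regions.

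Smaller differences divided the other motifs. More frequent in gained than in lost distal windows were the T-box motif (AGGTGTGA), at 1.22% (1.08 to 1.38) and 0.407% (0.304 to 0.544), and the EGR motif, at 2.72% (2.51 to 2.95) and 1.41% (1.21 to 1.65). All distal regions held them in 0.821% and 1.99%. The proneural E-box was in 29.5% of gained and 23.8% of lost windows, near the 28.4% of all distal regions. More frequent in lost windows were MEIS, at 19.8% (19.1 to 20.6) and 13.7% (13.2 to 14.2), the homeobox motif (TAATTA), at 7.11% and 3.801%, and RFX, at 5.69% and 3.03%. All distal regions held these in 17.5%, 5.76% and 4.27%. SOX (AACAAAG) stood at 5.35% of lost and 4.21% of gained windows, and 4.43% of all distal regions. MEF2 did not separate the sets, at 5.47% (5.06 to 5.91) of lost and 5.52% (5.22 to 5.84) of gained windows and 5.10% of all distal regions. A match is a stretch of letters, not a bound site, and matches to different motifs can overlap, as in the Cngb3 and Cux2 windows.

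**Figure D4:**
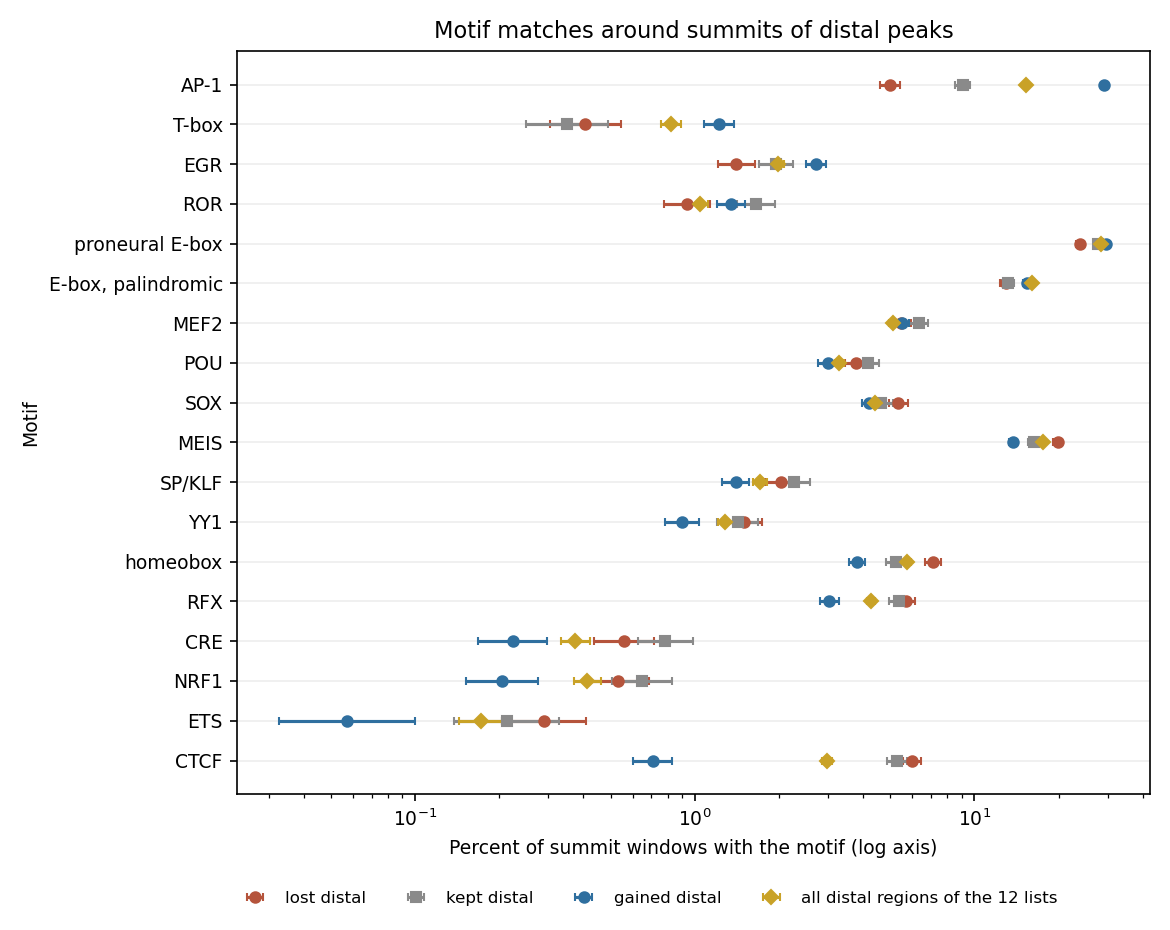
Percent of 200 bp summit windows with each motif (log axis) in lost, kept and gained distal peaks and in all distal regions of the 12 lists, ordered by the ratio of gained to lost, with 95% Wilson intervals. AP-1 stands at 29.2% of gained and 4.99% of lost windows and CTCF at 0.708% and 5.99%, and 1 very rare motif (NFI) is not drawn.

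The AP-1 share changed with the strength of gained peaks, with their position and with age. It was 23.6% in gained distal peaks of the weakest of the 10 strength groups of the P21 list and 43.3% (40.7 to 45.9) in those of the strongest, while in lost distal peaks it was 6.14% and 3.19% in these groups of the P7 list. Of the AP-1 matches in gained distal windows 38.8% lay within 25 bp of the summit, against 24.5% in lost ones. By list, 6.66% to 7.23% of all distal peaks held AP-1 in the 8 lists from E18.5 to P7, with 6.87% in Cux2 CPNs at P7. The share was 23.5% and 22.1% in Cux2 CPNs at P21 and P48, and 20.2% and 19.7% in Tle4 CThPNs at those ages. The early and late lists did not overlap in either class. That also held for other motifs, EGR, T-box, POU and homeobox among them, so it was not particular to AP-1. In Tle4 CThPNs, compared between the same ages, AP-1 was in 28.1% (25.9 to 30.3) of 1597 gained and 6.05% (5.54 to 6.60) of 7768 lost distal windows. The higher papain concentration belonged to the same P21 and P48 samples, and its part in the AP-1 share was not tested.

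CTCF was more frequent at lost sites that were listed again later. Among lost distal peaks the CTCF motif was in 12.0% (10.6 to 13.5) of those listed again at P48 and in 4.71% (4.29 to 5.16) of those not. The lost CTCF window in Cux2 shown above was in the lists of E18.5, P1, P3, P7 and P48, and absent at P21. By list, CTCF was in 5.67% to 7.10% of distal peaks in Cux2 CPNs from E18.5 to P7, in 2.05% at P21 and in 2.96% at P48. In Tle4 CThPNs it ranged from 3.15% to 4.83% at the early ages (4.83% at P7) and was 3.803% at P21 and 3.48% at P48, within the early range. The late Cux2 lists thus lay below every early Cux2 list, which the late Tle4 lists did not, and that difference between the classes was not tested. SOX, RFX and MEIS showed the same pattern, so it was not particular to CTCF. Between P7 and P21, CTCF was in 4.60% of lost and 1.69% of gained distal windows of Tle4 CThPNs.

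**Figure D5:**
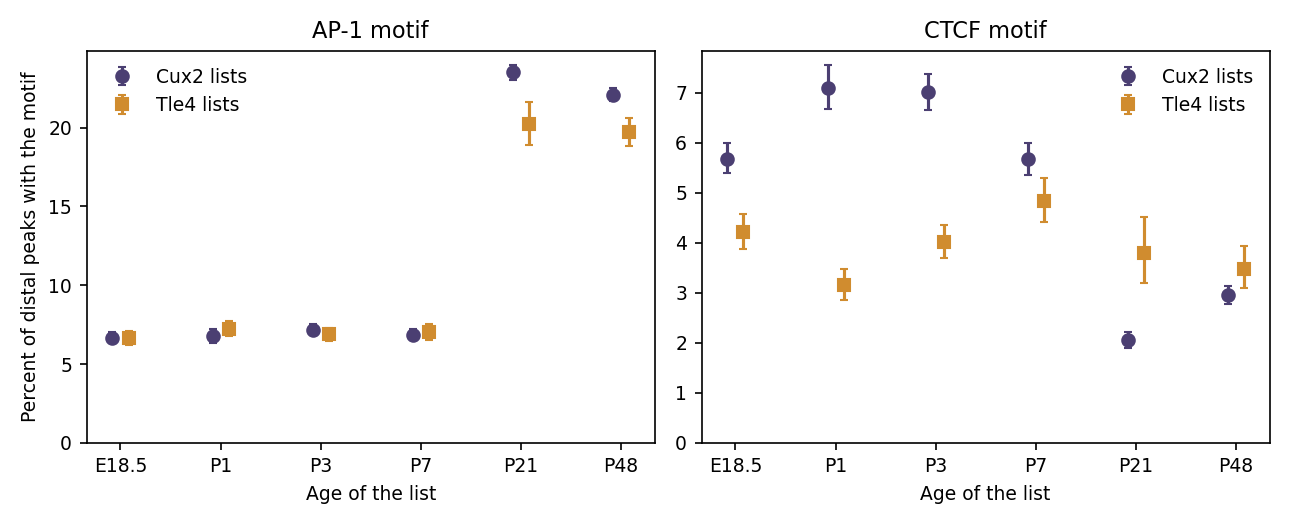
Percent of all distal peaks of each list with an AP-1 (left) or CTCF (right) motif in the 200 bp around the summit, by age, for Cux2 (circles) and Tle4 (squares) lists, with 95% Wilson intervals. AP-1 stands at 6.66% to 7.23% up to P7 and at 19.7% to 23.5% from P21, while CTCF stands at 2.05% and 2.96% in the late Cux2 lists and between 3.15% and 4.83% in all Tle4 lists.

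Among single sites, the 5 lost promoter peaks with the highest fold enrichment were those of Wbscr27 (20.1-fold), Dmwd (19.5), Sp100 (19.4), Gng7 (18.6) and Pdpk1 (18.4), and each was listed at all 4 early ages in both classes. Gng7, a G-protein gamma subunit, and Dmwd were listed again in Cux2 CPNs at P48, as was Pdpk1, the kinase that activates AKT, and Wbscr27 and Sp100 were not. The strongest lost distal peaks lay 22889 bp downstream of the TSS of Calcr, 13292 bp downstream of Gm5705, 12051 bp upstream of Has1, 51055 bp upstream of Chrm3, the M3 muscarinic receptor gene, and 111898 bp upstream of Wac. The peaks near Calcr and Chrm3 were in no early Tle4 list, and those near Gm5705, Has1 and Wac were in all 4.

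The 5 strongest gained promoter peaks had fold enrichments of 19.9 to 25.1 and lay at TSSs of Cngb3, the immunoglobulin segment Igkv6-15, the transcripts 1700071M16Rik and 1700025O08Rik, and Akr1c18. The strongest gained distal peaks had fold enrichments of 21.9 to 24.3. They lay 72873 bp upstream of Scel, in an intron of Macrod2, 515669 bp from the TSS of Gpam, in an intron of Glrb, the glycine receptor beta subunit gene, and 22377 bp downstream of the TSS of Dennd2a. All 10 were absent from the 8 early lists and present in Cux2 CPNs at P48. The peaks at Scel, Macrod2, Glrb and Dennd2a were also in both late Tle4 lists, and that at Gpam was in neither.

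Counting for each gene the distal peaks that had its TSS as the nearest protein-coding one within 100 kb, Pde4d, a cAMP phosphodiesterase gene, and Dlg2, which encodes the postsynaptic scaffold PSD-93, had 19 gained peaks each. Pde4b, Odz4 and Ank2 followed with 17, Cntn4 and Kcnma1 with 16, Kalrn with 15 and Elmo1 and Nrxn3 with 14. All 19 gained peaks of Dlg2 were intronic, 18 of them were listed at P48 and 10 held an AP-1 motif, while its 7 lost peaks held none. Kcnma1, the BK potassium channel gene, had 16 gained peaks against 1 lost, with fold enrichments of 6.42 to 14.7, and 15 of the 16 were listed at P48. All 14 gained peaks of Nrxn3, which encodes the synaptic adhesion protein neurexin 3, were listed at P48, and 6 held AP-1.

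Lost distal peaks were most numerous at Kcnip4, a regulator of A-type potassium channels, with 11, and at Pde4d and Odz3 with 10, Fam189a1 with 9 and Etl4, Cacna1a, Nebl, Dlg2, Phactr1 and Itpr1 with 7. The 11 lost peaks of Kcnip4 had fold enrichments of 5.89 to 12.1 and none was listed at P48, whereas 3 of its 7 gained peaks were. At Cacna1a, which encodes the pore of P/Q-type calcium channels, 7 distal peaks were lost against 3 gained, and its promoter peak was lost too. Pde4d had both many lost (10) and many gained (19) peaks, and none of the lost but 13 of the gained ones were listed at P48. Several genes thus exchanged distal sites between the ages instead of only adding them.

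A gene was counted as keeping its promoter when it had a promoter peak at both ages, at the same TSS or another. Across 22208 protein-coding genes, 13.5% had a promoter peak at P7 and none at P21, and 3.02% had one at P21 and none at P7. As a share of the genes with a promoter peak at P7, 33.2% lost it. At least 1 lost distal peak was near 24.3% of genes and at least 1 gained distal peak near 31.6%, with more gained than lost near 24.4% and more lost than gained near 12.8%. Neuronal gene lists contain long genes, and peaks per gene moved with gene length. The median gene spanned 15.5 kb. Of genes up to 10 kb long 12.7% had more gained than lost distal peaks, and of those over 200 kb 66.1% did, so counts of the lists below are to be read with their median span. They also moved with list length: at equal list length, genes with more lost than gained distal peaks numbered 8 of the 45 glutamate, 15 of the 44 potassium channel and 15 of the 53 axon guidance genes, in place of 3, 7 and 9. Over all genes such genes were then 16.3%, in place of 12.8%.

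Over the whole lists, most genes of the glutamate and presynaptic groups had more gained than lost distal peaks. At equal list length 21 of the 45 glutamate and 16 of the 27 presynaptic genes did. Of all genes spanning 100 to 200 kb, 51.2% had more gained than lost over the whole lists. Of 45 genes of glutamate receptors and the postsynaptic scaffold (median span 162 kb), 34 had a gained distal peak, 31 had more gained than lost and 3 had more lost than gained. Besides Dlg2 these included Dlgap1 (12 gained and 3 lost), Grm3 (9 and 3) and Dlgap2 (7 and 6). Promoter peaks were lost at 7 (15.6%) and gained at 3 (6.67%) of the 45 genes, against 13.5% and 3.02% over all genes. The lost ones were at Camk2b, Dlg4 (encoding PSD-95), Dlgap4, Gria1, Gria3, Grin3a and Grm8, and the gained ones included Homer2 and Lrrtm4. Of 27 presynaptic release genes (median span 49.3 kb), 18 had more gained than lost distal peaks and 3 the opposite, led by Nrxn3 (14 and 4). Promoter peaks were lost at 7 genes, among them Rims1, Rims2, Slc17a7, Snap25, Syn1 and Syp, and that of Stx1a was gained. Of the promoters listed at P7, 28.0% in the glutamate and 41.2% in the presynaptic list were lost, on either side of the 33.2% over all genes.

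Among 17 genes of GABA receptors and chloride transporters (median span 102 kb), 12 had a gained distal peak, 7 (41.2%) more gained than lost and 2 more lost. Of all genes spanning 100 to 200 kb, 51.2% had more gained. Promoter peaks were gained at 3 genes, Gabra5 and Gabbr2 among them, and lost at 3, Gabra3 and Slc12a2 among them. The lost ones were 50.0% of the 6 listed at P7, against 33.2% over all genes. Gabra3 encodes a receptor subunit of early postnatal cortex, and Slc12a2 encodes NKCC1, the chloride importer of immature neurons. The Slc12a2 promoter peak was listed again at P48. Slc12a5, which encodes the chloride exporter KCC2, had no promoter peak at either age, 1 lost and 1 gained distal peak.

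Of 44 potassium channel genes (median span 55.2 kb), 34 had a gained and 27 a lost distal peak, and 25 had more gained and 7 more lost. Of all genes spanning 50 to 100 kb, 41.2% had more gained. Promoter peaks were lost at 7 (among them Kcna1, Kcna4, Kcna6, Kcnh1, Kcnh3 and Kcns2) and gained at 3 (Kcnb2, Kcnd3 and Kcnn1). The lost ones were 38.9% of the 18 listed at P7, against 33.2% over all genes. Of 28 sodium, calcium and HCN channel genes (median span 120 kb), 16 (57.1%) had more gained than lost distal peaks and 6 the opposite. Of all genes spanning 100 to 200 kb, 51.2% had more gained. In this list 4 promoters were lost (Cacna1a, Cacna1b and Scn3b among them), 44.4% of the 9 listed at P7, and none gained. Scn8a, the sodium channel of mature axon initial segments, had 4 gained peaks with fold enrichments of 9.53 to 12.9, all listed at P48, and 1 lost peak. The 11 genes of neurofilaments and of the axon initial segment and node had a median span of 101 kb. More gained than lost distal peaks were found at 8 and more lost at 1. Ank2 and Ank3, which encode ankyrins B and G, had 17 and 12 gained. Nefh was the gene of this list with a lost promoter peak, and none was gained.

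Genes of immature neurons both kept and lost promoter peaks, in shares that moved with list length. Of 30 transcription factor and cytoskeleton genes of immature neurons (median span 7.61 kb), 14 kept their promoter peak, 9 lost it and 3 gained one. Lost promoters were those of Bhlhe22, Marcksl1, Neurod2, Nfib, Nfix, Sox12, Stmn1, Tubb2a and Tubb2b, and gained ones those of Bcl11a, Dcx and Gap43. Dcx and Gap43, genes of growing neurites, were thus listed at P21 but not at P7, and the Dcx peak was also listed at E18.5 and absent at P48. More gained than lost distal peaks were found at 13 genes and more lost at 8, with 11 gained and 4 lost at Dclk1. Gained peaks were 57.3% of the changed distal peaks of these genes, against 64.3% over all genes. At equal list length 10 genes kept and 13 lost their promoter peak, and 35 distal peaks were lost and 33 gained. Of the promoters listed at P7, 39.1% were lost, and 56.5% at equal list length, against 33.2% and 43.1% over all genes. Of 53 axon guidance genes (median span 148 kb), 28 had more gained than lost distal peaks and 9 the opposite, with 12 gained and none lost at the plexin gene Plxna2 and 11 gained and 1 lost at the netrin receptor gene Unc5d. Their promoter changes were nearly balanced, with 7 lost (Efna3, Nrp1, Plxna2, Rgma, Sema3d, Sema5b and Sema6d) and 6 gained (Robo1, Robo2, Sema5a, Sema7a, Slit3 and Unc5a). The lost ones were 33.3% of those listed at P7, near the 33.2% over all genes. A promoter peak was gained at 11.3% of the axon guidance genes and at 3.02% of all genes.

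The 25 activity-regulated genes (median span 6.71 kb) are transcribed after neuronal firing and include subunits of AP-1. Of them 16 kept a promoter peak, 6 lost and none gained one. The lost ones, 27.3% of those listed at P7 against 33.2% over all genes, were those of Btg2, Dusp1, Fosb, Npas4, Nr4a1 and Nr4a2. At equal list length 10 were lost, 45.5% of those listed at P7 against 43.1% over all genes. Of the AP-1 genes, named here after their values were seen, Fos, Jun, Junb, Fosl2 and Jund kept a promoter peak and Fosb lost it. The strongest kept promoter peak of Fos had a percentile rank of 78.2 at P7 and 62.1 at P21, and that of Jun 98.8 and 99.4. The ranks were 69.3 and 55.3 at Junb, 85.0 and 19.2 at Fosl2 and 87.0 and 5.95 at Jund. More gained than lost distal peaks were found at 10 of the 25 genes and more lost at 6, and within 50 kb in place of 100 kb at 7 and 8.

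Of 72 nuclear genes of the respiratory chain 37 kept their promoter peak, 21 lost it and 4 gained one (Cyc1, Ndufa4, Ndufs4 and Uqcrc2). The lost ones, 36.2% of those at P7 against 33.2% over all genes, included Sdha, Sdhb, Sdhd and Ndufs1. More gained than lost distal peaks were near 14 genes (19.4%) and more lost near 6 (8.33%), against 24.4% and 12.8% over all genes. The median span of this list was 7.72 kb, and of all genes up to 10 kb long 12.7% had more gained. Of 33 genes of DNA methylation and chromatin regulation 13 promoters were kept, 10 lost and 1 gained, that of Tet3, which oxidizes methylated cytosine. The lost ones were 43.5% of those at P7, against 33.2% over all genes. In this list (median span 41.0 kb) 8 genes had more gained and 8 more lost distal peaks. Each was 24.2% of the list, against 24.4% and 12.8% over all genes. Losses included Hdac2, Hdac3, Smarca4, Chd4 and Eed.

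Promoter peaks of cell type markers gave a mixed account of the label. None of the 13 markers of upper-layer callosal neurons kept a promoter peak. Lhx2 and Pou3f2 lost theirs and Calb1 and Cux2 gained one, and 12 of the 13 had a gained distal peak. Cux1, which is expressed in these neurons and is named here after its values were seen, was among the 9 without a promoter peak at either age. Of 14 deep-layer markers 4 kept a promoter peak (Etv1, Ldb2, Pcp4 and Tle4), 5 lost it (Bcl11b, Foxp2, Syt6, Tbr1 and Zfpm2) and none gained one. Markers of other cells also had gained distal peaks, at 11 of 14 deep-layer, 8 of 17 interneuron and 5 of 13 oligodendrocyte markers. So did 5 of 10 astrocyte, 2 of 11 microglia and 2 of 8 endothelial markers. Mbp had 6, and Slc1a2, Slc1a3 and Aldh1l1 had 5 each. Lost distal peaks were near 6 deep-layer, 7 interneuron, 5 oligodendrocyte, 4 astrocyte, 0 microglia and 3 endothelial markers. Over all protein-coding genes 31.6% had a gained and 24.3% a lost distal peak. The part of other cells in the gained peaks was not tested. Promoter peaks of markers of other cells were few. At P7 and P21 they numbered 3 and 1 of 17 for interneurons, 1 and 0 of 13 for oligodendrocytes, 2 and 1 of 10 for astrocytes, and 0 and 0 of 11 for microglia and of 8 for endothelial cells. Gad1, Gad2 and Slc32a1 of interneurons were without a promoter peak at both ages.

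The Cux2 gene itself showed the exchange of sites in a single locus. Its 4 lost distal peaks had fold enrichments of 6.15 to 10.3, and all but 1 had been listed at E18.5. Its 3 gained distal peaks and the gained promoter peak, with fold enrichments of 7.90 to 15.1, were in no early list of either class, in Cux2 CPNs at P48 and in no Tle4 list. Another promoter peak of Cux2 was listed in Cux2 CPNs at E18.5 and P1, so its promoters were not listed at late ages only. The Syp promoter peak (7.66-fold) was listed in Cux2 CPNs at E18.5, P1, P3, P7 and P48, and Syp had 2 lost and no gained distal peak. Grin2a, the NMDA receptor subunit gene of maturing cortex, had 3 gained distal peaks of 9.69-fold to 12.2-fold enrichment, all in no early list and in the P48 list, and 1 kept peak. Grin2b, the early subunit, had 2 gained, 2 kept and no lost. Nefm had 3 gained distal peaks, all listed at P48, and none kept or lost. Tle4, Egr3 and Scn3a kept their promoter peaks, as did Sox4 and Sox11, each with 1 lost and no gained distal peak. Scn1a kept 1 promoter peak and lost another, and Apc2, a cytoskeletal regulator, lost 1 and gained 1 at different TSSs.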

How the data were processed

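ATAC-seq libraries of sorted neurons were aligned by the authors to NCBI37 (mm9) with Bowtie2, freed of duplicates with Picard and peak-called with MACS2, and peaks reproducible between the 2 replicates (IDR) were kept. A shift of reads for the transposase's cut was not given in the sources used here. The fold enrichment ratio over local background and the −log10 p of each peak were used as the authors deposited them. These files hold no read counts, so depth and its precision are unknown.

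Peaks were intersected, annotated with GENCODE vM1 on NCBIM37 (86803 TSSs) and searched for 19 motifs in the 200 bp around the summit, with python 3.11.15, numpy 2.4.6, pandas 2.3.3, scipy 1.17.1, matplotlib 3.10.9 and samtools 1.23.1. No peak of the 2 lists ran past a chromosome end. Y and mitochondrial peaks were left out (11 at P7, 6 at P21). Distal peaks went to the nearest protein-coding TSS within 100 kb. Scripts were tested on simulated data.

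The members, gene lists and motifs were chosen with earlier results of these data known. Genes were named by rule: the 5 strongest peaks of each set, the 10 genes with most lost and with most gained distal peaks, list members with a lost or gained promoter or the 4 most changed distal counts, and 15 preset genes. Zbtb18, Nrep, Draxin, Sptbn4, Kmt2a, Lamp5 and Myrf were in the gene lists but not matched in the annotation. Late and early lists were compared by exact permutation of age labels within neuron class. Some named genes are not reported here. Alternatives changed list length, overlap, promoter distance, window, GC range and gene distance.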

Additional observations from a re-analysis of the deposited data

Results flagged for a closer look

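In 44 sets of motif shares or gained shares, each over lists of 1 stage, 2 values stood apart from the rest of their set by Dixon's test. Both were motif shares, and chance gives such a value in about 1 in 20 sets. The ROR motif (TAGGTCA) was in 1.27% of distal peaks of Cux2 CPNs at P7, the highest of the 8 early lists, with a gap to the next list of 0.575 of the whole range. The proneural E-box (CAGATG) was in 29.6% of distal peaks of Cux2 CPNs at E18.5, the highest of the 8 early lists, with a gap of 0.706 of the range, both above the 95% limit of that test for 8 lists.

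The number of peaks moved in opposite directions in the 2 classes between P7 and P21, by +26.5% in Cux2 CPNs and by -56.9% in Tle4 CThPNs. With 1 list per class and age this difference was not tested.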

How the results depend on the processing

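Values are given in the order P7 peaks lost, P21 peaks gained, P7 promoter and distal peaks lost, P21 promoter and distal peaks gained, and promoters among lost and among gained peaks. At equal list length they were 57.2%, 57.1%, 48.2%, 61.2%, 16.1%, 66.8%, 26.0% and 5.36%, and with both lists cut at a common −log10 p 45.3%, 63.4%, 34.7%, 50.6%, 21.9%, 72.8%, 25.3% and 6.41%. When at least 50% of a peak had to be covered they were 53.2%, 60.7%, 44.5%, 57.1%, 20.2%, 69.9%, 25.7% and 6.18%. When a peak within 500 bp counted as shared, the first 6 were 48.3%, 58.95%, 37.3%, 53.2%, 18.2% and 68.2%. Promoter peaks lost and gained, and promoters among lost and gained peaks, were 37.6%, 15.1%, 22.1% and 4.27% with a promoter distance of 500 bp and 40.3%, 25.1%, 27.3% and 8.90% with 2 kb. With TSSs of protein-coding genes only, the last 3 of these were 16.8%, 22.7% and 4.83%. In each setting with both values promoters as a whole were lost and gained less often than distal peaks, but at matched strength they were lost more often in the 7 weaker of 10 groups (80.3% and 70.9% in the weakest).

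With Tle4 lists only, the late minus early gained share was 49.9 points for distal, 30.3 for promoter and 52.7 for all sites, each with an exact permutation p = 0.0667, the smallest possible there. Leaving out each list in turn gave 57.4 to 62.1, 29.5 to 30.0 (29.49 to 30.03) and 57.7 to 61.1 points. The exact permutation p was 0.0667 without the Cux2 list of P48 and 0.05 without either late Tle4 list, the smallest possible in each case. Of the motif shares recomputed, 92 stayed within their interval and 79 did not, and gained minus lost had the same sign in all 3 alternatives for 17 of 19 motifs (MEF2 and SP/KLF in 2 of 3). Of the gene list counts, 212 stayed within 1.5 times and 16 did not, among them, at equal list length, genes with more lost than gained distal peaks, from 3 to 8 of the glutamate and from 7 to 15 of the potassium channel genes. No paired analysis was possible because each list merges the 2 replicates that share numbers in the labels.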
